A study of Mus musculus with 10 samples.

Results

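DEAD box and DEAH box proteins are RNA helicases, enzymes that use ATP to open RNA duplexes or to strip proteins from RNA. They are named after the letters of a conserved stretch of the protein, motif II, which takes part in ATP binding and hydrolysis. Different members act at nearly every step in the life of an mRNA, from transcription and splicing to nuclear export, translation, storage and decay, and a large group assembles ribosomes. Ddx25 encodes GRTH, a member of the family made in the testis, and male mice that lack it form no mature sperm.

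The family was taken as every gene whose symbol begins with Ddx or Dhx followed by a digit. The deposited table listed 53 such rows among 15507 genes. The rule left out 1 of them, so that 52 members were described: Ddx25, the targeted gene, and 51 relatives. Transcripts were measured by RNA-Seq of germ cells from 5 WT mice and 5 GRTH-KI mice, all aged 45 days, with cells prepared from each mouse separately. KI mice were homozygous for a knocked-in human GRTH gene that carries an arginine-to-histidine missense change, and WT mice carried the mouse gene. The study states that these KI mice lack the phosphorylated form of GRTH. In cultured cells, it reports, the mutant gene still gave the form without phosphate. Counts of the mouse Ddx25 transcript do not measure GRTH protein. The germ cells were freed from the testis with collagenase and trypsin and passed through strainers, without sorting, so each library held spermatogonia, spermatocytes and spermatids together. The question asked of the family was whether any relative was higher in KI germ cells, where the transcript of the mouse Ddx25 gene was low.

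The libraries held between 13323024 and 16422347 reads on genes in WT (median 15203687) and between 12722086 and 15500582 in KI (median 15182116). Values are normalized counts, that is, reads divided by a size factor for each library, and 3 reads were worth 2.61 to 3.62 on this scale. Libraries 1 to 3 of both genotypes stood apart from libraries 4 and 5 on the second principal component, at -9.51 to -2.82 against 6.44 to 11.7. The labels give no batch for this split, so values for both sets are given beside the results they touch. All 7 markers of elongating spermatids were down-regulated in KI (median log2 fold change -2.55), with a summed normalized count of 218750 to 394736 in WT and 31547 to 63567 in KI. The sum of 6 round spermatid markers was 17528 to 19643 in WT against 10710 to 16086 in KI. Of these 6, 0 passed both thresholds and 3 were lower at the adjusted p threshold. Markers of Leydig cells (3 of 6) and macrophages (3 of 7) were up-regulated, whereas 0 of 7 Sertoli cell markers were called at the adjusted p threshold in either direction. Of 7 markers each for spermatogonia and spermatocytes, 1 each was lower at that threshold (Gfra1, -0.48, and Spo11, -0.41) and none was higher, and of 3 peritubular myoid cell markers tested 2 were up-regulated. In bulk germ cells, fewer cells of a type and less RNA per cell cannot be told apart.

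Motif II is the part of the gene that defines the family, and it is shown for Ddx25, for the closest relatives Ddx19a and Ddx19b, and for the members with the clearest differences between genotypes. Each line gives 30 bases of coding sequence from the 5' side, with the 12 bases that encode motif II in capitals, from the mouse GENCODE vM21 transcripts.
Ddx25: tttgtcctgGATGAAGCAGATgtgatgatt
Ddx19a: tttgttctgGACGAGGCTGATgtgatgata
Ddx19b: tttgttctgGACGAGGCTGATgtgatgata
Ddx3x: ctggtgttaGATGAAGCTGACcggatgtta
Ddx28: atagtgctaGATGAAGTAGACacactgcta
Ddx59: gtcgtagtaGACGAAGCTGACaccatgttg
Dhx37: gtgatcattGACGAAGCCCATgagcggagc

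The windows of Ddx19a and Ddx19b differed at 0 of 30 bases, and each differed from that of Ddx25 at 5 of 30. The window of Ddx3x differed from that of Ddx25 at 11 bases, that of Ddx28 at 12, and those of Ddx59 and Dhx37 at 13 each. On GRCm38, the capitals of Ddx25 lie on the minus strand at chr9:35551335-35551346, in exon 8 of 12. Those of Ddx19a and Ddx19b are also in exon 8 of 12, at chr8:110979086-110979097 and chr8:111011335-111011346 on the minus strand. Those of Ddx3x lie at chrX:13289408-13289419 on the plus strand, in exon 11 of 17. Those of Dhx37 lie at chr5:125426717-125426728 on the minus strand, in exon 8 of 27. Those of Ddx28, a gene of 1 exon, lie at chr8:106010558-106010569 on the minus strand, and those of Ddx59 are split between exons 4 and 5. Across the family, the motif read DEAD in 27 members, DEAH in 9, DEVH in 5, DEVD in 3, DECD, DECH and DEIH in 2 each and DESD in 1, and it was not found in Dhx32.

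Over the aligned residues of the translated coding sequences, Ddx25 was 65.0% identical to Ddx19a, 63.4% to Ddx19b and 33.6% to Ddx6. The other 48 relatives lay between 19.7% for Ddx58 and 33.1% for Ddx56. Ddx19a and Ddx19b were 92.1% identical to each other in protein and 94.2% in coding bases. The pairs Ddx3x with Ddx3y (91.2% in protein) and Ddx39 with Ddx39b (91.1%) were nearly as close. Counts were assigned by an expectation-maximization model, which can divide reads between such copies, so the split between the members of each pair is uncertain.

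Ddx25 (chr9:35541848-35558470, mm10) was the member with the clear change. Its normalized counts were 7615, 7782, 5198, 11101 and 9458 in WT libraries 1 to 5. In KI libraries 1 to 5 they were 146, 194, 161, 2.88 and 1.84. Every KI library lay far below every WT library, and KI libraries 4 and 5, with 3 and 2 reads, lay below KI libraries 1 to 3. WT averaged 8231 ± 2209 and KI averaged 101 ± 91.7 (SD, n = 5 each), and the log2 fold change was -7.84 (SE 1.03) at a limma adjusted p of 5.63e-05. In edgeR and DESeq2, which fit the group means, it was -6.35 in each. The log2 fold change was -5.34 in libraries 1 to 3 against -11.59 in libraries 4 and 5, and that difference passed the interaction test (adjusted p = 1.12e-10), which called 0.247% of all genes and, among the members, Ddx25 alone. With 2 or 3 reads in KI libraries 4 and 5, the limma value for that set, and with it the value over all 10 libraries, depends on the pseudocount. Whether reads of the human transcript were assigned to the mouse gene was not tested.

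None of the 51 relatives was up-regulated or down-regulated at the thresholds used by the study, an adjusted p under 0.05 together with at least a 1.5-fold change, in limma, in edgeR or in DESeq2. By the same rule, 14.4% of the 15389 genes tested were called, 6.13% as up-regulated and 8.22% as down-regulated. At an unadjusted p under 0.05, limma placed 7 relatives higher and 2 lower in KI, beside 16.2% and 18.4% of all genes (34.6% in all). At the adjusted p threshold alone, 3 relatives were higher (Ddx28, Ddx59 and Dhx37) and none was lower, beside 9.65% and 13.3% of all genes (22.9% in all). With the replicate number as a block, 6 were higher and 1 lower (Ddx20) at that threshold, beside 14.7% and 17.4% of all genes (32.0% in all). The log2 fold changes of the 51 relatives ran from -0.28 for Ddx20 to 0.54 for Ddx28, so that all 51 stayed under 1.5-fold, as did 82.4% of all genes. For 43 of them, the 95% interval lay wholly within 1.5-fold in either direction. The intervals of Ddx3x, Ddx3y, Ddx19a, Ddx28, Ddx58, Ddx59, Ddx60 and Dhx37 reached beyond a 1.5-fold rise. With library totals as the scaling, which raised the median of all genes, 6 relatives passed both thresholds as higher (Ddx3x, Ddx19a, Ddx28, Ddx59, Ddx60 and Dhx37), beside 13.9% of all genes.

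The median log2 fold change of the relatives was 0.11, against 0.03 for all genes. Fitted values were above 0 for 38 relatives and below 0 for 13. Scaling by library totals moved the median of all genes to 0.25 and that of the relatives to 0.34, with 49 above 0, and scaling by spermatocyte markers gave 48 above 0. The relatives lay 0.08 above the median of all genes under each of these scalings, and 32 of 51 exceeded it in each.

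**Figure D1:**
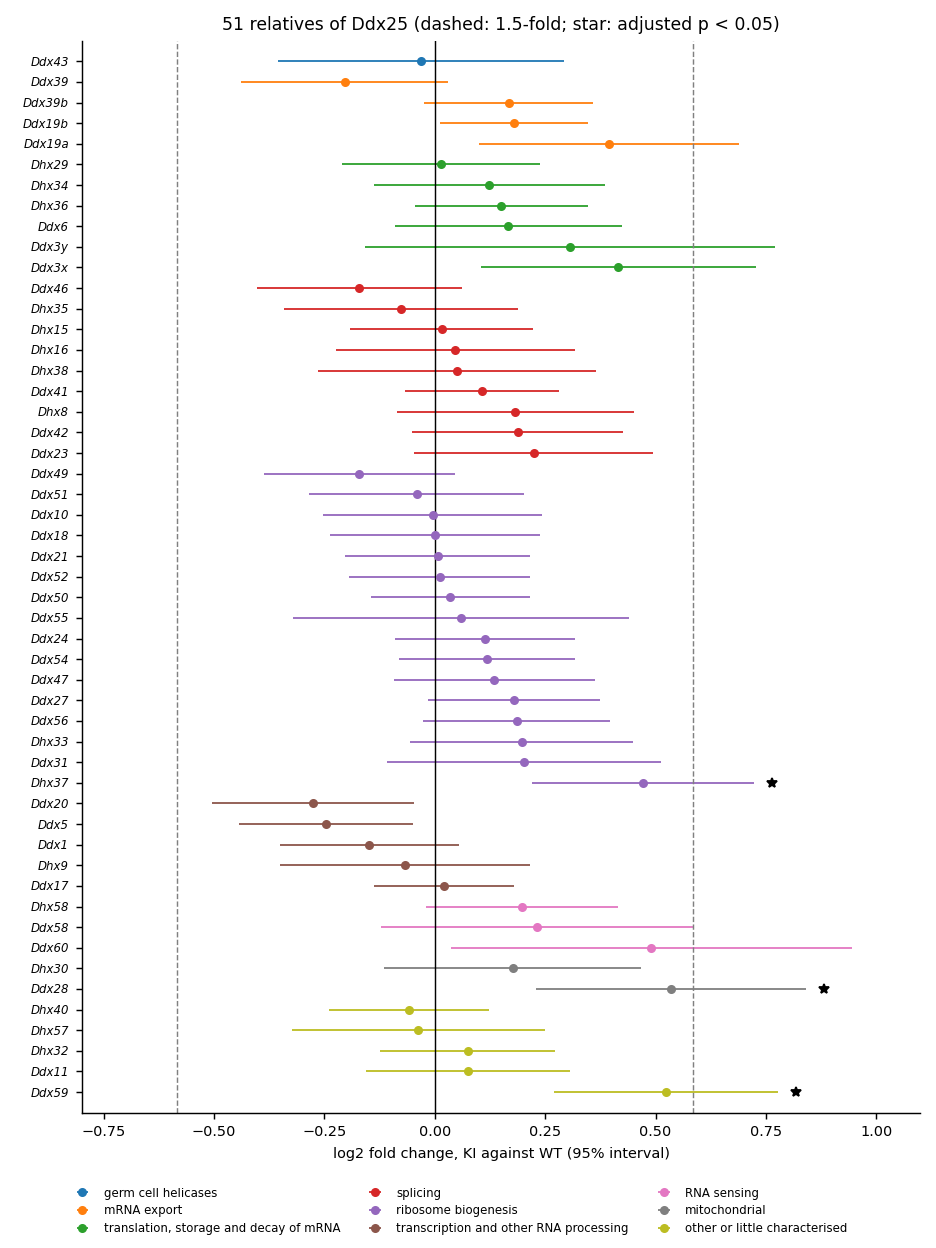
Log2 fold change, KI against WT, of the 51 relatives of Ddx25 with 95% intervals, coloured by role. Dashed lines mark 1.5-fold, and stars mark Ddx28, Ddx59 and Dhx37, the relatives with an adjusted p under 0.05; no point lies outside the dashed lines.

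Ddx28, a helicase of the mitochondrion that takes part in assembling its ribosome, had the largest positive value of the family. Its normalized counts were 147, 133, 174, 216 and 148 in WT libraries and 194, 269, 234, 219 and 263 in KI libraries. KI library 1 lay below WT library 4, so the genotypes overlapped. WT averaged 164 ± 32.7 and KI averaged 236 ± 31.1 (SD, n = 5 each), and the log2 fold change was 0.54 (SE 0.14) at a limma adjusted p of 0.0134. The values were 0.61 in libraries 1 to 3 and 0.43 in libraries 4 and 5. Without WT library 4, or without KI library 1, Ddx28 passed the fold threshold as well. Its gene (chr8:106009616-106011486, mm10) overlaps Dus2 on the opposite strand by 9 bases.

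Ddx59, a helicase linked to development of the face and digits in people, did not overlap between genotypes. Normalized counts of 143, 147, 140, 122 and 113 in WT libraries and 177, 175, 187, 213 and 205 in KI libraries were measured. The lowest WT values and the highest KI values both came from libraries 4 and 5. WT averaged 133 ± 14.7 and KI averaged 192 ± 17.2 (SD, n = 5 each), and the log2 fold change was 0.52 (SE 0.12) at a limma adjusted p of 0.00467. It was 0.32 in libraries 1 to 3 against 0.83 in libraries 4 and 5, and the latter set alone put Ddx59 past both thresholds. The interaction did not pass (adjusted p = 0.231). Its gene lies at chr1:136415271-136440220 (mm10).

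Dhx37 acts in assembly of the small ribosomal subunit. Its normalized counts were 218, 240, 225, 281 and 242 in WT libraries and 277, 341, 304, 368 and 391 in KI libraries. Only KI library 1 lay within the WT range, just under WT library 4. WT averaged 241 ± 24.5 and KI averaged 336 ± 46.4 (SD, n = 5 each), and the log2 fold change was 0.47 (SE 0.12) at a limma adjusted p of 0.00883. It was 0.43 in libraries 1 to 3 against 0.54 in libraries 4 and 5. Its gene lies at chr5:125414404-125434048 (mm10).

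Ddx28, Ddx59 and Dhx37 were higher than the WT mean in 5 of 5 KI libraries, and their values stayed positive under each scaling tried. These genes were picked by their calls in the same libraries, so this adds no separate support. Both traits also held for Ddx17, with a log2 fold change of 0.02 (limma adjusted p = 0.881). Ddx28, Ddx59 and Dhx37 were all expressed at a low level: per kb of transcript, they ranked 40, 42 and 45 of 52 in WT and 39, 40 and 42 in KI. Their summed normalized count was 538 ± 47.4 in WT and 763 ± 80.5 in KI, a difference of 226, whereas the mean of Ddx25 differed by -8130. Markers of some somatic cells, but not of all, were also higher in KI. The summed count of the macrophage markers was 609 to 793 in WT and 840 to 1191 in KI. That of the Leydig cell markers was 10124 to 17806 and 14556 to 25454, with overlap. Peritubular myoid cell markers summed to 75.2 to 133 in WT and 145 to 188 in KI. Sertoli cell markers summed to 5760 to 9502 in WT and 5857 to 10148 in KI. The part of these cells in the values of Ddx28, Ddx59 and Dhx37 was not tested.

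**Figure D2:**
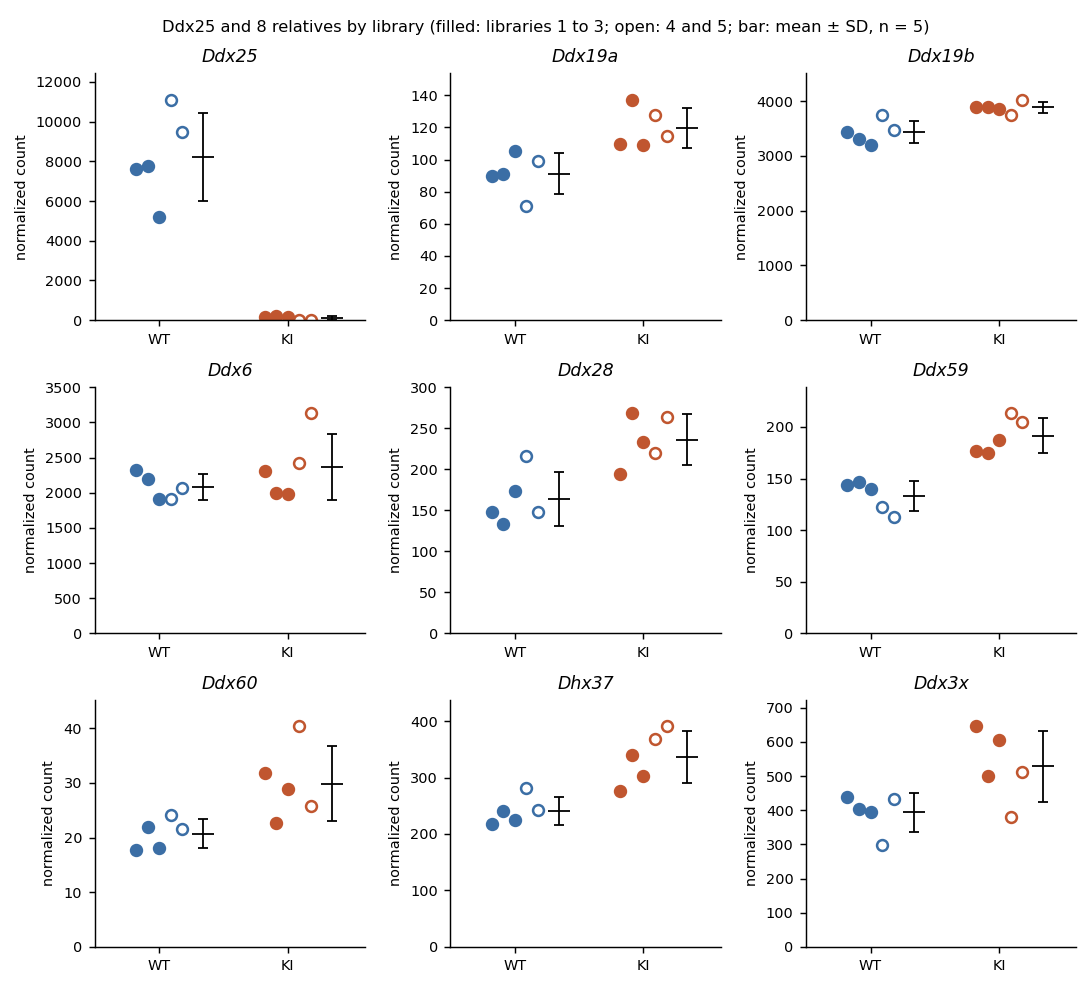
Normalized count of Ddx25 and 8 relatives in each library, with a separate axis from 0 for each gene; filled points are libraries 1 to 3, open points libraries 4 and 5, and the bar is the mean ± SD of 5 libraries. Ddx25 sits near 0 in KI, whereas the relatives shift by less than 1.5-fold, with separated genotypes for Ddx19a, Ddx19b and Ddx59.

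Ddx19a and Ddx19b, the relatives closest to Ddx25 in sequence, encode helicases that release mRNA-bound proteins at the nuclear pore during export. Ddx19a (chr8:110974991-110997823, mm10) had normalized counts of 90.0, 91.3, 105, 71.2 and 98.8 in WT libraries and 110, 137, 109, 128 and 115 in KI libraries. The lowest KI library lay just above the highest WT library. The mean was 91.3 ± 12.8 in WT and 120 ± 12.4 in KI (SD, n = 5 each), and the log2 fold change of 0.39 (SE 0.14) did not pass (limma adjusted p = 0.0518). It passed with the replicate number as a block (adjusted p = 0.0451) and in DESeq2 (adjusted p = 0.040).

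Ddx19b (chr8:111003186-111031751, mm10) was the more abundant copy. Normalized counts of 3434, 3315, 3207, 3747 and 3474 in WT libraries and 3897, 3888, 3863, 3754 and 4027 in KI libraries were measured. The genotypes did not overlap, but WT library 4 and KI library 4 were nearly equal. The mean was 3435 ± 203 in WT and 3886 ± 97.4 in KI (SD, n = 5 each), and the log2 fold change of 0.18 (SE 0.08) did not pass (limma adjusted p = 0.116; DESeq2 adjusted p = 0.0446). The 95% interval of Ddx19b was 0.01 to 0.35, well within 1.5-fold. The sum of both copies, which does not depend on how reads were divided between them, was 3527 ± 192 in WT and 4006 ± 94.1 in KI, a difference of 479. Among all members, 3 were higher without overlap (Ddx19a, Ddx19b and Ddx59) and 2 were lower (Ddx25 and Ddx5), beside 6.80% and 10.9% of all genes.

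The other members that act in export were Ddx39 and Ddx39b, close copies that help load export factors onto spliced mRNA. The log2 fold change was 0.17 for Ddx39b (adjusted p = 0.205) and -0.20 for Ddx39 (adjusted p = 0.207), and the value of Ddx39 turned to 0.02 with library totals. Relative to the median of all genes under that scaling (0.25), Ddx39 was at -0.23. Ddx39 had -0.06 in libraries 1 to 3 and -0.42 in the others. Of the 11 symbols in a list of Ddx19 partners and export receptors, 10 were listed and all of these were tested. Nup98, a nuclear pore protein, was down-regulated from 11137 ± 1067 to 7289 ± 2088 (log2 fold change -0.65, adjusted p = 0.00758). The normalized counts of Nup98 were 11182, 12462, 10760, 9600 and 11678 in WT libraries and 5948, 6013, 5475, 8838 and 10173 in KI libraries. KI libraries 1 to 3 lay well below all WT libraries, whereas KI library 5 exceeded WT library 4. Its log2 fold change was -0.98 in libraries 1 to 3 and -0.16 in the others, and this difference passed the interaction test (adjusted p = 0.0411). None of the other 9 passed: Gle1, which activates Ddx19, had a value of -0.04, Nup214, its docking site at the pore, -0.01, and Nxf1, the main mRNA export receptor, -0.03.

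Ddx6, a helicase of mRNA storage and decay that is also the third closest in sequence to Ddx25, lies at chr9:44604892-44640731 (mm10). Its normalized counts were 2329, 2191, 1917, 1910 and 2070 in WT libraries and 2304, 1991, 1979, 2418 and 3133 in KI libraries. KI library 5 was the highest, and 3 of 5 KI libraries lay within the WT range. The mean was 2083 ± 180 in WT and 2365 ± 470 in KI, with a log2 fold change of 0.17 (SE 0.12, adjusted p = 0.361). It was -0.04 in libraries 1 to 3 against 0.47 in libraries 4 and 5, and the interaction did not pass (adjusted p = 0.158). Without KI library 5 the value of Ddx6 over the remaining libraries was 0.060.

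Ddx3x, which promotes translation of mRNAs with structured leaders, lies on the X chromosome (chrX:13281022-13293983, mm10). Normalized counts of 439, 404, 396, 297 and 433 in WT libraries and 646, 501, 606, 380 and 512 in KI libraries were measured. Library 4 was the lowest of each genotype, and KI library 4 was the only one within the WT range. The mean was 394 ± 57.2 in WT and 529 ± 104 in KI (SD, n = 5 each), and the log2 fold change of 0.42 (SE 0.15) did not pass in limma (adjusted p = 0.0530). It passed with the replicate block (adjusted p = 0.00238), in edgeR (adjusted p = 0.0451) and in DESeq2 (adjusted p = 0.0279). Ddx3y, the copy on the Y chromosome, had a value of 0.31 (adjusted p = 0.349), with 0.18 in libraries 1 to 3 and 0.49 in the others. D1Pas1, the autosomal copy found in testis, which is 94.7% identical to Ddx3x in protein, had -0.36 (adjusted p = 0.0832, or 0.0261 with the block), with -0.60 in libraries 1 to 3 and 0.0071 in the others. In the deposited coordinates, the spans of several Btbd35f genes cover Ddx3x on the opposite strand, each by the same 12962 bases. Whether a copy of these genes lies opposite Ddx3x was not tested.

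The other members with roles in translation and decay were Dhx29 (0.01), Dhx34 (0.12) and Dhx36 (0.15), given as log2 fold changes, and none passed. Dhx29 helps the small ribosomal subunit scan structured leaders, Dhx34 takes part in nonsense-mediated decay, and Dhx36 resolves G-quadruplexes. All 6 members of this group had values above 0 (median 0.16), as did 38 of the 51 relatives. Between libraries 1 to 3 and the others, 3 of the 6 changed direction. They were Ddx6 (-0.04 and 0.47), Dhx29 (-0.13 and 0.23) and Dhx34 (-0.0026 and 0.31). Dhx36 had 0.042 and 0.31.

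Of the 3 members that sense or act on foreign RNA, Ddx60 had the largest log2 fold change, 0.49 (SE 0.21, adjusted p = 0.115). Its normalized counts were 17.8, 22.0, 18.1, 24.1 and 21.6 in WT libraries and 31.9, 22.6, 28.8, 40.4 and 25.8 in KI libraries. KI library 2 lay within the WT range. At 20.7 ± 2.7 in WT and 29.9 ± 6.81 in KI, Ddx60 (chr8:61928087-62037701, mm10) was the lowest member per kb in both genotypes. Ddx58, the cytoplasmic receptor RIG-I, had 0.23 (0.064 in libraries 1 to 3 and 0.48 in the others), and Dhx58, the related regulator LGP2, had 0.20.

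Ddx5 (chr11:106780355-106789185, mm10), a coregulator of transcription and RNA processing, was the most abundant member and lay lower in KI. Normalized counts of 22024, 22674, 20388, 19200 and 20207 in WT libraries and 17836, 17066, 16728, 18385 and 17918 in KI libraries were measured. All KI libraries lay below all WT libraries. The mean was 20898 ± 1418 in WT and 17587 ± 674 in KI (SD, n = 5 each), and the log2 fold change of -0.25 (SE 0.09) did not pass in limma (adjusted p = 0.0681), while it passed in edgeR (adjusted p = 0.0490) and DESeq2 (adjusted p = 0.00525). It was -0.02 with library totals, a scaling under which all genes had a median of 0.25. Measured from that median, Ddx5 was at -0.27. By set, Ddx5 had -0.33 in libraries 1 to 3 and -0.12 in the others. Ddx17, which is 71.7% identical to Ddx5 in protein, had a log2 fold change of 0.02 (adjusted p = 0.881).

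Ddx20, also called Gemin3, a component of the complex that assembles spliceosomal ribonucleoproteins, had normalized counts of 5381, 6056, 4983, 5617 and 5819 in WT libraries. In KI libraries they were 4087, 4267, 4035, 5506 and 5247. KI libraries 1 to 3 lay below all WT libraries, and libraries 4 and 5 lay among them. The log2 fold change was -0.28 (SE 0.11, adjusted p = 0.0777) and passed with the replicate block (adjusted p = 0.0227). It was -0.40 in libraries 1 to 3 against -0.09 in libraries 4 and 5. In the same group, Ddx1, which acts in tRNA ligation, had -0.15 and Dhx9, also called RNA helicase A, had -0.07, and both were above 0 with library totals. Relative to the median of all genes under that scaling (0.25), Ddx1 was at -0.17 and Dhx9 at -0.09. Ddx1 had -0.30 in libraries 1 to 3 and 0.074 in the others, and Dhx9 had -0.13 and 0.030. Ddx5 and Ddx20 were described in full after their values were seen.

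The 9 splicing helicases had a median log2 fold change of 0.05 and ran from -0.17 for Ddx46 to 0.22 for Ddx23. None passed in limma. Ddx23, a component of the U5 particle, passed with the replicate block (adjusted p = 0.0427, against 0.233 without it). Ddx46 had -0.33 in libraries 1 to 3 and 0.07 in libraries 4 and 5. Dhx8, which releases the spliced mRNA, had -0.04 and 0.52, Ddx42 had -0.01 and 0.49, and Dhx38 had -0.15 and 0.35. Of these 9, 7 changed direction between the sets of libraries.

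Dhx37 was the only one of 16 ribosome biogenesis members past the adjusted p threshold. The group ran from -0.17 for Ddx49 to 0.47 for Dhx37, with a median of 0.09. Among the others, Ddx31 had 0.20, Dhx33 0.20, Ddx56 0.19 and Ddx27 0.18, and Ddx10, Ddx18 and Ddx21, all nucleolar helicases, lay within 0.01 of 0. Ddx31 (0.35 and -0.018), Ddx52 (-0.15 and 0.25) and Ddx55 (0.20 and -0.16) had opposite signs in libraries 1 to 3 and in the others. Dhx30, which acts on mitochondrial RNA, had 0.18 (adjusted p = 0.399), beside the 0.54 of Ddx28, with 0.050 in libraries 1 to 3 and 0.37 in the others. Ddx43, a germ cell helicase, had -0.03 (adjusted p = 0.914). The remaining members were Ddx11, a helicase of DNA repair and chromatid cohesion, with 0.08, and Dhx32, Dhx40 and Dhx57 with 0.07, -0.06 and -0.04.

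**Figure D3:**
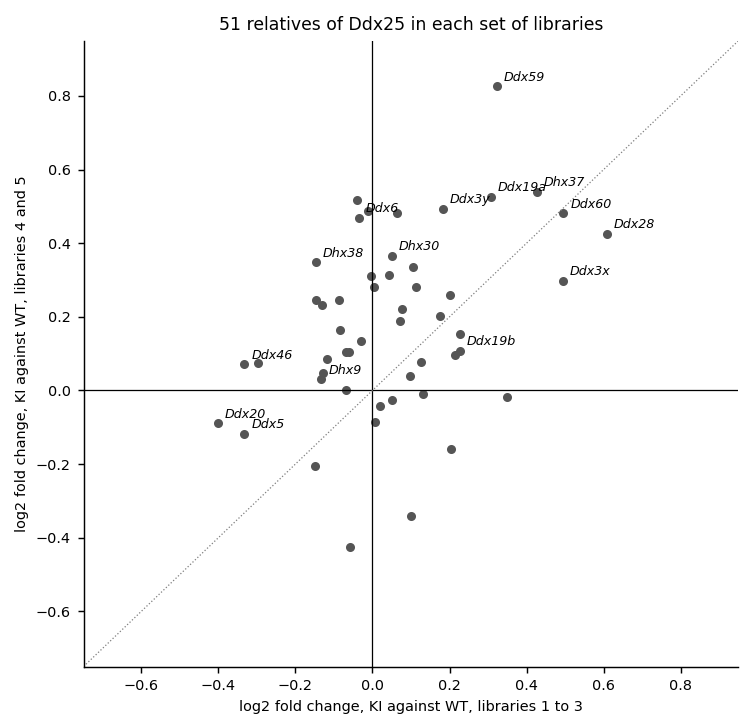
Log2 fold change, KI against WT, of each of the 51 relatives in libraries 1 to 3 (horizontal) and in libraries 4 and 5 (vertical); the dotted line marks equal values. Ddx28, Ddx59, Dhx37, Ddx3x and Ddx19a are above 0 on both axes, and 25 relatives lie in the quadrants where the directions differ.

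The direction of many relatives differed between the sets of libraries. In libraries 1 to 3 the relatives ran from -0.40 to 0.61 (median 0.04), and in libraries 4 and 5 from -0.42 to 0.83 (median 0.16). Opposite signs were found for 25 of 51 relatives (49.0%), beside 32.0% of all genes: 18 were lower in libraries 1 to 3 and higher in libraries 4 and 5, and 7 the other way. The 2 shares have unlike bases, because all 51 relatives stayed under 1.5-fold, against 82.4% of all genes. A value near 0 changes sign more readily than a large one. The values of the sets were more than 0.2 apart for 26 relatives. No relative passed the interaction test, with 0.0972 for Dhx8 as the lowest adjusted p. Whether the split is one of handling or of animals was not tested.

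Per kb of transcript, Ddx25 ranked 4 of 52 in WT, with a normalized count per kb of 1187 ± 319. It came after Ddx5 (5872 ± 398), Ddx20 (1918 ± 142) and Dhx30 (1462 ± 150) and before Ddx19b (1107 ± 65.5). Ddx25 did not differ from Dhx30 or Ddx19b beyond its spread. In KI it ranked 51, at 14.6 ± 13.2 per kb, between Ddx58 (15.9 ± 1.4) and Ddx60 (4.57 ± 1.04). The transcript used for Ddx25 is 6934 bases long, and per kb of coding sequence its rank was 2 in WT and 48 in KI. Ddx19b ranked 4 per kb of transcript in KI, at 1252 ± 31.4.

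**Figure D4:**
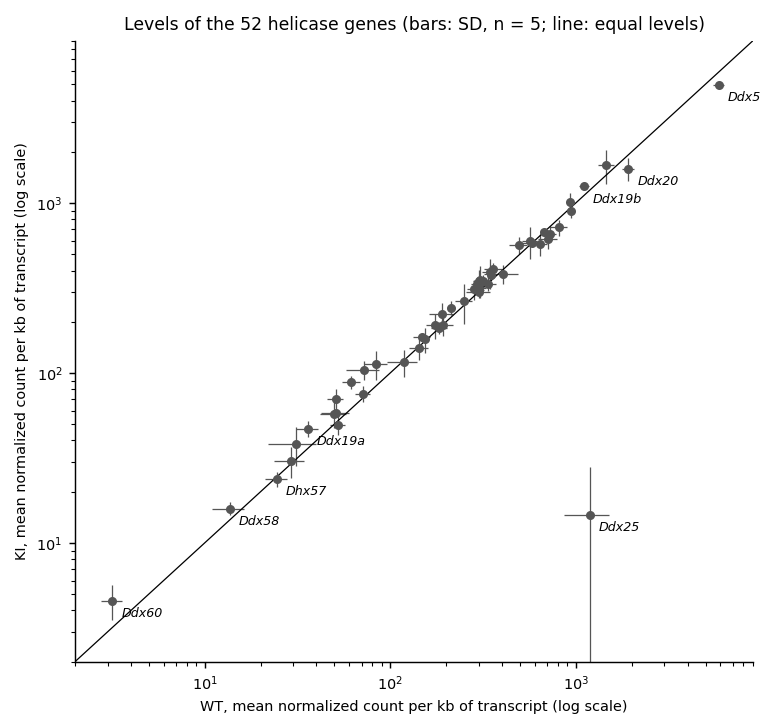
Mean normalized count per kb of transcript of the 52 members in WT (horizontal) and KI (vertical), both on log scales, with SD over 5 libraries as bars and a line of equal levels. All members but Ddx25 lie close to the line; the lower bar of Ddx25 in KI runs past the axis.

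Ddx25 made up 8.91% ± 2.18 of the normalized counts of all 52 members in WT and 0.130% ± 0.118 in KI (SD, n = 5 each). The sum over the 51 relatives was 83594 ± 2614 in WT (79793 to 86283) and 81925 ± 6220 in KI (75965 to 88715), so that the genotypes overlapped and the means differed by -1668, whereas those of Ddx25 differed by -8130. Leaving out 1 library moved the difference of the relatives to between -178 (without KI library 3) and -3366 (without KI library 5). Without KI libraries 1, 2 or 4 it was -655, -803 and -3340, and without WT libraries 2 or 3 it was -996 and -2619. The 37 relatives with a higher mean in KI added 3946, and the difference summed over the 14 with a lower mean was -5614, with -3312 from Ddx5. KI libraries 1 to 3 lay below every WT library, with a mean of 77434, and KI libraries 4 and 5 lay above every WT library, with a mean of 88663.

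The direction of this sum depended on the scaling: it was higher in KI by 11343 with library totals and by 9459 with spermatocyte markers. These scalings raised all genes, from a median log2 fold change of 0.03 to 0.25 with library totals and 0.20 with spermatocyte markers. The spermatocyte markers themselves had a median of -0.22 in the reported fit, with 5 of 7 below 0. As a share of all reads on genes, the 51 relatives made up 0.524% ± 0.0188 in WT and 0.601% ± 0.0222 in KI, without overlap. Such a share is a scaling by library totals, under which the median of all genes also lay above 0, so the rise is not particular to the relatives. The relatives and Ddx25 together made up 0.576% ± 0.0313 in WT and 0.602% ± 0.0216 in KI. The summed normalized count of the elongating spermatid markers was 307447 in WT and 52410 in KI on average, and the part of these markers in the shares was not tested.

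**Figure D5:**
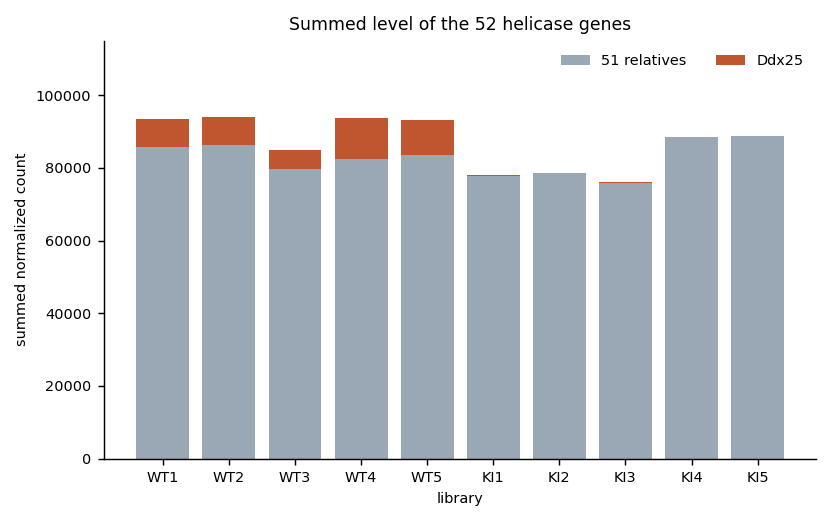
Summed normalized count of the 51 relatives (grey) and of Ddx25 (red) in each library. The red part is 5198 to 11101 in WT and at most 194 in KI, and the grey part is lowest in KI libraries 1 to 3 and highest in KI libraries 4 and 5.

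RNA helicases whose symbols fall outside the rule were taken from a list of 25 symbols, of which 23 were listed and tested. They include D1Pas1, 94.7% identical to Ddx3x in protein, so the rule by symbol does not take in every related helicase. The sums, shares and ranks above cover the members of the rule only. None of the 23 tested was up-regulated or down-regulated at both thresholds in limma, edgeR or DESeq2. In limma, 5 were higher and 2 lower at an unadjusted p under 0.05, beside 16.2% and 18.4% of all genes. At the adjusted p threshold, where 9.65% of all genes were higher and 13.3% lower, none of the list was lower and 3 were higher. They were Ascc3, a helicase of alkylation repair and ribosome quality control (0.52, adjusted p = 0.0137), Supv3l1, which degrades mitochondrial RNA (0.42, adjusted p = 0.00236), and Eif4a3, a core protein of the exon junction complex (0.24, adjusted p = 0.0485). With the replicate block, 4 of the list were higher and 2 lower at that threshold, beside 14.7% and 17.4% of all genes. Ighmbp2 was added among the higher (0.31, adjusted p = 0.0332, against 0.0855 without the block). The 2 lower were Eif4a2 (-0.37, adjusted p = 0.0031, against 0.0740) and D1Pas1. Among fits that each left out 1 library, Eif4a3 passed without WT library 4 (adjusted p = 0.0433) or without KI library 1 (0.0480) and in no other. Supv3l1 was 352 ± 17.4 in WT and 470 ± 17.9 in KI. The median log2 fold change of the list was 0.03, equal to that of all genes to 2 decimals.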

How the data were processed

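RNA-Seq values of 10 libraries (5 WT, 5 KI) were used. After adapter trimming, the authors ran STAR against mm10 and the Partek E/M quantification (RefSeq_v91), and what they deposited is a normalized signal, the count divided by a DESeq2 size factor; strand use was not given in the sources used here. The values were checked to be whole multiples of 1 read (100% of values up to 2000 reads, tolerance 0.1), which gave the reads per library; DESeq2 size factors computed from these reads deviated from the deposited scaling by at most 3.99e-06 percent.

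Genes passing filterByExpr of edgeR 4.0.16 were tested with limma 3.58.1 (R 4.3.3, variance trend) on log2(value + 1), a scale that understates changes of low genes, with Benjamini-Hochberg adjustment over all 15389 genes tested. Differential expression required an adjusted p under 0.05 and a fold change of at least 1.5. The quasi-likelihood test of edgeR and DESeq2 1.42.0 were run on the recovered reads as alternatives, and the fits were tested on simulated data. Same-numbered WT and KI libraries deviated together (r = 0.306, 0.105, 0.280, 0.216 and 0.462 for numbers 1 to 5), a pairing seen in the values and not stated in the labels. The mean r of each WT library with the other KI libraries of its set was 0.099, 0.040, 0.257, 0.114 and 0.168. For number 3 the 2 values were thus close. A replicate block was an alternative. The interaction of genotype with libraries 1 to 3 against 4 and 5 was added after seeing the data.

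Named in full were Ddx25, members past both thresholds, the 3 relatives most identical to Ddx25 in protein and the 5 members with the largest positive log2 fold change. Members and lists were chosen with earlier results of these data known. Proteins were translated from GENCODE vM21 and aligned globally (Biopython 1.88, BLOSUM62). Coordinates are those of the deposited table. One row of the family is not reported here. Other columns were all assigned (columns not assigned, 0).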

Additional observations from a re-analysis of the deposited data

Results flagged for a closer look

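In 104 groups of 5 libraries (52 members, both genotypes), 3 groups held a library far from the other 4 by Dixon's test, where chance gives about 1 in 20. Ddx54, a ribosome biogenesis helicase, had a normalized count of 1185 in WT library 1, below the 1384 to 1452 of the other WT libraries. Dhx40 had 3358 in WT library 3, below 3587 to 3679. Dhx58 had 1417 in WT library 4, above 1081 to 1173. None of these 3 members passed the adjusted p threshold between genotypes.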

How the results depend on the processing

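Ddx25 was lower in KI at the adjusted p threshold in all 23 alternatives tried for it, with log2 fold changes from -11.59 to -5.34 and adjusted p from 9.31e-14 to 2.98e-04. Ddx28 and Ddx59 passed in 22 of 23 and Dhx37 in 21 of 23. The adjusted p ranged over the alternatives from 0.00174 to 0.252 for Ddx28, from 2.24e-04 to 0.0639 for Ddx59 and from 4.26e-04 to 0.0669 for Dhx37. The number of members higher at both thresholds, 0 in the reported fit, was 6 with library totals (13.9% of all genes), 3 with spermatocyte markers (8.03%), 1 in libraries 1 to 3 alone (Ddx28; 7.2%), 1 in libraries 4 and 5 alone (Ddx59; 3.06%) and 0 to 1 when each library was left out. The number higher at the adjusted p threshold, 3, was 30 with library totals (32.6% of all genes) and 6 each with DESeq2 (11.1%), the replicate block (14.7%) and a term for the library set (14.2%). The number lower at that threshold, 1, was 2 each with edgeR (13.6%), DESeq2 (14.4%) and the block (17.4%), 3 with the term (17.2%), 5 in libraries 1 to 3 alone (18.0%) and 1 to 2 when each library was left out. Among other RNA helicases, those higher at both thresholds (0) became 2 with library totals (13.9% of all genes), 1 with spermatocyte markers (8.03%) and 1 in libraries 4 and 5 (3.06%). On leaving out libraries they were 0 to 1, with 1 without KI library 2 (5.43% of all genes). Those lower (0) became 1 in libraries 1 to 3 (8.76% of all genes). The median log2 fold change of the members (0.09) was 0.32 with library totals, 0.26 with spermatocyte markers, 0.030 in libraries 1 to 3 and 0.16 in libraries 4 and 5. The difference in the summed relatives (-1668) was 11343 with library totals, 9459 with spermatocyte markers and -3366 to -178 when each library was left out. The median of all genes was 0.25 with library totals and 0.20 with spermatocyte markers, against 0.03 in the reported fit. Ddx6 reversed in libraries 1 to 3 (-0.036). The cause of these shifts was not tested. The block changed the call of Ddx3x, Ddx19a, Ddx20 and Ddx23 and of no other member, and of Eif4a2, D1Pas1 and Ighmbp2 among the other helicases.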
